A study of Mus musculus with 8 samples.

Results

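The Schlafen genes are a family of mouse genes that lie together on chromosome 11. The 7 protein-coding genes Slfn1, Slfn2, Slfn3, Slfn4, Slfn5, Slfn8 and Slfn9 were followed on expression arrays of the mouse line BV-2, microglia made immortal by a retroviral vector and widely used in place of primary brain macrophages. The genes were chosen by symbol with their levels in all 4 groups already known, so the differences of the members between groups are a description and carry no p. All 7 had a probe on the array, 9 probes of 55681 in all, with a pair of probes for Slfn8 and for Slfn9. Of these, 7 probes for 5 genes passed the filter on dim probes, which asked that both arrays of 1 group or more read well above background. Slfn1 and Slfn5 did not pass. The tests across the array covered 22446 genes, of which 13799 had a symbol. The others stood under the array's own name for the transcript or region and are counted here as genes.

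Cells were harvested after 24 h in 4 groups of 2 arrays each, all of the same line. The LPS+HF group received lipopolysaccharide (LPS, 1 µg/mL) together with 100 µg/mL of HF, the fraction of the mushroom Amauroderma rugosum that hexane takes up. The LPS group received 1 µg/mL of LPS, the HF group 100 µg/mL of HF, and the control group was left untreated. LPS, the endotoxin of Gram-negative bacteria, acts on macrophages through Toll-like receptor 4. The study calls the pairs biological replicates, and whether they came from separate cultures is not stated, so the errors measure the spread between these arrays, which may be partly technical.

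In mouse the family is grouped by protein length. Slfn1 and Slfn2 encode short proteins, Slfn3 and Slfn4 intermediate ones, and Slfn5, Slfn8 and Slfn9 long ones that add a helicase-like region. Several members are known as genes that type I interferons and Toll-like receptor ligands induce in macrophages. The name, from the German word for sleep, comes from the quiescence of T lymphocytes, which mouse Slfn2 helps to maintain. Slfn2 protein binds transfer RNAs and shields them from cleavage, whereas several long Schlafen proteins, best known from human SLFN11, cut transfer RNA.

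The sequences before the transcription starts are shown for all 7 members, with the letters that some of them share. The promoter windows, from RefSeq on GRCm38.p6, span 250 bases before to 50 bases after an annotated start, and all 7 genes had one. The longest run of bases shared by the windows of Slfn1, Slfn2, Slfn3 and Slfn4 was ACTTCCTGG, 9 bases long. It was looked for in these 4 after the windows had been seen, so its presence in all 4 follows from the choice. Runs of 7 to 9 bases were also shared between a window of these 4 and one of Slfn5, Slfn8 or Slfn9. Of all 32851 promoter windows, 0.843% hold this run, and 0 of the windows of Slfn5, Slfn8 and Slfn9 do. The stretches below are 80 bases each, 5′ to 3′ on the gene's own strand, with that run in capitals. They lie at chr11:83065021-83065100 for Slfn2, chr11:83175077-83175156 for Slfn4, chr11:83191252-83191331 for Slfn3 and chr11:83116710-83116789 for Slfn1, all on the plus strand.
Slfn2: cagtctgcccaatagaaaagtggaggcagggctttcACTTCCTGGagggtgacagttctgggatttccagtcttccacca
Slfn4: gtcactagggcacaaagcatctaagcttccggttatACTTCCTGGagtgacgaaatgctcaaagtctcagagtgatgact
Slfn3: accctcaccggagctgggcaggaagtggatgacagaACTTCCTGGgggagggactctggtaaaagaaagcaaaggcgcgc
Slfn1: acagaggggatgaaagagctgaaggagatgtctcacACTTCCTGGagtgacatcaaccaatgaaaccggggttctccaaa
The run begins 55 bases before the start of Slfn2, 73 before that of Slfn4, 42 before that of Slfn3 and 74 before that of Slfn1. Slfn1 and Slfn4 share a longer run of 15 bases around it.

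A set of 3 short motifs was searched on both strands of the same windows. The core of the interferon-stimulated response element (ISRE), which interferon-activated STAT and IRF complexes bind, was spelled GAAANNGAAA and stood in 3.44% of all windows. The STAT element GAS was spelled TTCNNNGAA, found in 8.3% of windows, and the kB element GGGNNTTTCC, found in 1.63%. An ISRE core was present for Slfn5, Slfn8 and Slfn9, 3 of the 7 genes, and GAS or kB for 0 of 7. No match to the ISRE core, GAS or kB letters stood in the windows of Slfn2, Slfn3, Slfn4 or Slfn1. The stretches of the genes with a core are given with the matched letters in capitals, at chr11:83020814-83020893 on the minus strand for Slfn8, chr11:82991831-82991910 on the minus strand for Slfn9 and chr11:82951912-82951991 on the plus strand for Slfn5.
Slfn8: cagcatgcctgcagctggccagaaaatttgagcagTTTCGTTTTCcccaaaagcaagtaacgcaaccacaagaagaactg
Slfn9: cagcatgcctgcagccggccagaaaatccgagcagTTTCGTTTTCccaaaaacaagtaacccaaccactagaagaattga
Slfn5: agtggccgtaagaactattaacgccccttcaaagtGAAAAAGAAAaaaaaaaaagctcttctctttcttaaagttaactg
In Slfn8 and Slfn9 the match is the same 10 letters, TTTCGTTTTC, read from the other strand. It begins 48 bases before the start of Slfn8, counted from 1 of its 2 annotated starts, and 45 bases before that of Slfn9. The windows of this pair share a run of 20 bases, the longest of any pair among the 7. These matches describe letters only.

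Before any result, a few properties of the arrays bear on the values. The 75th percentile of brightness, to which each array was scaled, lay at 454.5 to 526.8 in LPS+HF, 282.5 to 286.1 in LPS, 345.6 to 472.3 in HF and 246.5 to 261.7 in control arrays. A level below is log2 of a probe's processed signal minus log2 of that percentile, and levels are compared between arrays only, not between probes. The scanner's quality report marked control replicate 1 and HF replicate 1 for evaluation. Of the 8 arrays, only control replicate 1 had its grid marked as not good. Repeated probes had a coefficient of variation of 50.91% on control replicate 1 and of 6.73% to 9.18% on the others. All 8 arrays lay on 1 slide, with the HF and LPS+HF arrays in row 2 and the LPS and control arrays in row 1. The LPS+HF and LPS arrays held columns 3 and 4, the HF and control arrays columns 1 and 2, so position and treatment cannot be told apart. With these bulk cultures, fewer cells that express a gene and less RNA per cell cannot be told apart either.

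**Figure D1:**
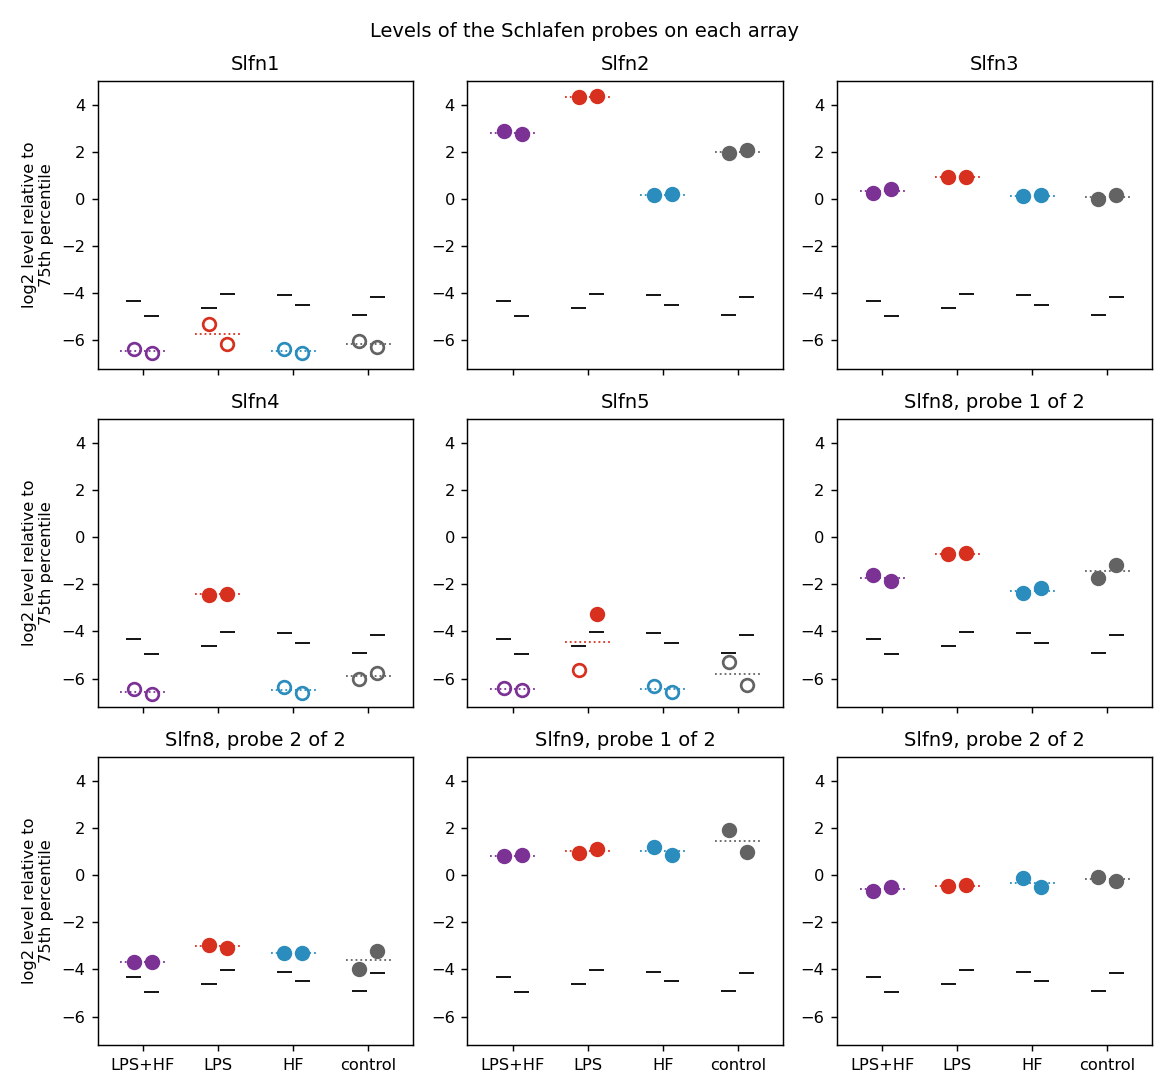
Level of each of the 9 Schlafen probes on each of the 8 arrays (vertical axis, log2 relative to the array's 75th percentile) in the 4 groups. Filled points were well above background and open points were not, black ticks mark the lowest level of any probe above background on that array, and dotted lines are group means. Slfn2 stands highest in LPS cells at 4.32 and 4.35, Slfn4 is above background in LPS cells alone, and Slfn1 is open on every array.

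Slfn2, the member tied to quiescence and to the protection of transfer RNA, was above background on every array and separated all 4 groups. Its level was 2.88 and 2.75 in LPS+HF cells, 4.32 and 4.35 in LPS cells, 0.17 and 0.19 in HF cells, and 1.94 and 2.08 in control cells. No groups overlapped, and the order from high to low was LPS, LPS+HF, control and HF. LPS cells stood 2.32 ± 0.14 (log2 difference ± SE, n = 2 arrays a group) above control cells, which is 5.01-fold. HF cells stood 1.83 below control cells (log2 difference -1.83 ± 0.14, 3.55-fold), and LPS+HF cells 1.52 below LPS cells (-1.52 ± 0.14, 2.87-fold). The rise with LPS was also present when HF was there, at 2.63 ± 0.14 in LPS+HF over HF cells, or 6.21-fold. The step with LPS was larger with HF than without by 0.31 ± 0.19, which did not pass. The level was lower with HF both in the presence and in the absence of LPS. The order of LPS+HF below LPS held in the signals before scaling, which were 3880 and 3060 in LPS+HF cells and 5620 and 5850 in LPS cells. The call was lost in 6 of 21 alternative fits. These were no scaling (-0.74), median scaling (-1.37) and leaving out any 1 of the LPS or LPS+HF arrays (-1.58 to -1.45 over all 8 left out in turn). The call of HF against control was lost in 11 of 21. These were leaving out any 1 of the HF, LPS or LPS+HF arrays (-1.90 to -1.76 over all 8), normexp (-2.02), median scaling (-1.44), no filter (-1.83), only the arrays compared (-1.83) and no scaling (-1.16).

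Slfn4 showed a different pattern. This intermediate member is known in mouse macrophages as an interferon-induced gene. Its single probe was above background in LPS cells and in no other group. The level was -6.46 and -6.64 in LPS+HF cells, -2.44 and -2.42 in LPS cells, -6.35 and -6.63 in HF cells, and -6.02 and -5.78 in control cells. In processed signal that is 5.96 and 4.55 in LPS+HF cells, 51.9 and 53.3 in LPS cells, 4.24 and 4.76 in HF cells, and 3.80 and 4.78 in control cells. Only the LPS arrays were separate from background, so folds are given as bounds. These take, for each array, the lowest signal of any probe well above background in place of the dim spot. Where the dim spot itself read higher than that, its own level was kept. By this rule Slfn4 was at least 4.28-fold higher in LPS than in control cells and at least 4.62-fold lower in LPS+HF than in LPS cells. A spot not well above background can read above that lowest signal, as the pseudogene Slfn10-ps did on control replicate 1 (-0.74 against -4.92). The bounds hold under this rule only. With HF present no response to LPS was measurable, since LPS+HF and HF cells were both below background, and no fold is given between them or between HF and control cells. The fitted difference between the 2 responses, -3.53 ± 0.24 in log2, passed, but it rests on values below background and is no bound. That call was kept in 7 of 19 alternative fits. The probe passed the filter only through the LPS group, so its calls for LPS against control and LPS+HF against LPS are no support. The call for LPS+HF against LPS was lost without LPS replicate 1 or LPS replicate 2.

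**Figure D2:**
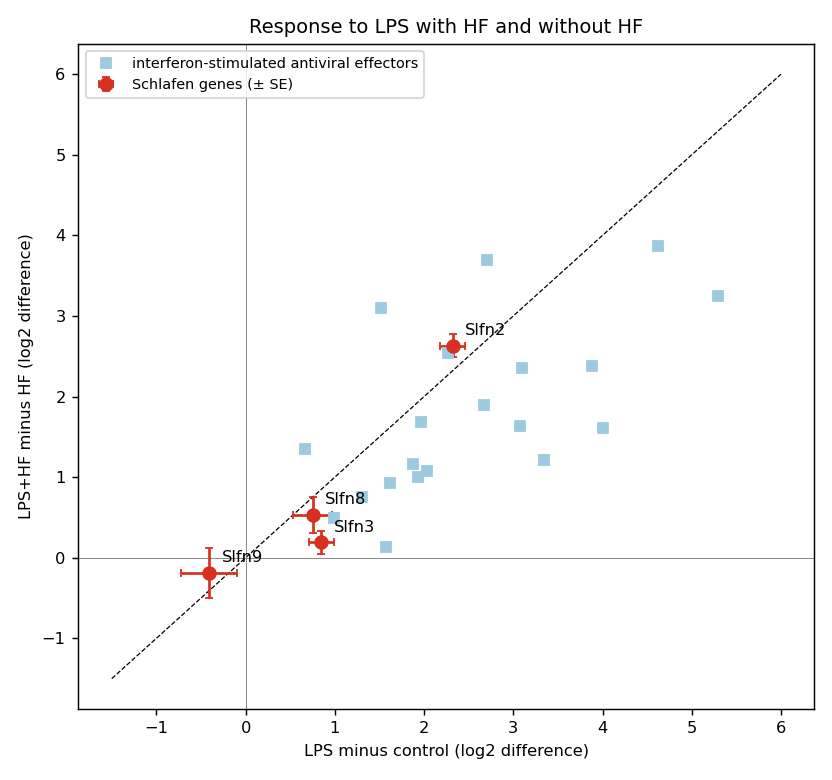
Response to LPS in the presence of HF (vertical axis, LPS+HF minus HF, log2 difference) against the response without HF (horizontal axis, LPS minus control, log2 difference) for the 4 Schlafen genes (red, bars are SE) and 20 interferon-stimulated antiviral effectors (blue squares) that were above background in every group, which leaves out Slfn4. The dashed line marks equal responses, and Slfn2 lies at 2.63 with and 2.32 without HF.

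Slfn3, the other intermediate member, known from differentiation of the gut epithelium in rat, had smaller differences. Its level was 0.26 and 0.42 in LPS+HF cells, 0.95 and 0.93 in LPS cells, 0.14 and 0.15 in HF cells, and 0.01 and 0.17 in control cells. The LPS arrays were highest and did not overlap any other group, and HF lay within the span of the control arrays. LPS stood 0.85 ± 0.14 above control (1.80-fold) and passed, as it did in 10 of 21 alternative fits. With an array left out in turn the call held only without control replicate 1 or control replicate 2 (0.77 to 0.92 over all 8). LPS+HF stood 0.60 below LPS (-0.60 ± 0.14), which did not pass. Before scaling that order turned round, with signals of 630 and 607 in LPS+HF cells and 544 and 544 in LPS cells, and a log2 difference of 0.18. Without scaling the median of all genes in that comparison also moved, to 0.71, against -0.07 with scaling.

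The long members behaved differently from each other. Slfn8, a long member known from mouse T lymphocytes, was above background on every array with both of its probes. On the brighter probe the level was -1.59 and -1.87 in LPS+HF cells, -0.72 and -0.69 in LPS cells, -2.36 and -2.18 in HF cells, and -1.72 and -1.20 in control cells. The LPS arrays were highest and the HF arrays lowest, and only LPS+HF and control overlapped. LPS+HF stood 1.03 below LPS (-1.03 ± 0.22, 2.04-fold), which lay just inside the threshold. The call was lost when the probes were fitted one by one, and held in 7 of 21 alternative fits. With an array left out in turn it held only without control replicate 1 or control replicate 2 (-1.17 to -0.89 over all 8). LPS stood 0.75 ± 0.22 above control and HF 0.81 below control (-0.81 ± 0.22), and neither passed. The dimmer probe had levels of -3.70 and -3.67 in LPS+HF cells, -2.96 and -3.09 in LPS cells, -3.30 and -3.29 in HF cells, and -3.97 and -3.21 in control cells. Its difference had the same sign as that of the brighter probe for LPS against control (0.56) and LPS+HF against LPS (-0.66). The sign was opposite for HF against control, 0.30, and for LPS+HF against HF, -0.39 where the brighter probe gave 0.53.

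Slfn9, a long member and the neighbour of Slfn8, had no difference that passed in any comparison. On its brighter probe the level was 0.79 and 0.84 in LPS+HF cells, 0.95 and 1.12 in LPS cells, 1.17 and 0.84 in HF cells, and 1.90 and 1.00 in control cells. The LPS, HF and control arrays overlapped. The LPS+HF arrays were lowest, just under HF replicate 2. The highest value came from control replicate 1, and its spot lay where that array read 0.97 log2 above the mean of the other arrays locally. After a correction for such local deviations the control levels were 0.93 and 1.1. On control replicate 1 the processed signal of this probe was 920 against a median spot brightness of 271. On control replicate 2 these were 522 and 572, and the cause was not tested. The dimmer probe had -0.66 and -0.52 in LPS+HF cells, -0.45 and -0.44 in LPS cells, -0.14 and -0.49 in HF cells, and -0.07 and -0.23 in control cells. LPS minus control was -0.41 ± 0.31 and became 0.17 after the local correction, and HF minus control was -0.44 ± 0.31 and became 0.04.

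Slfn1 and Slfn5 gave no usable level. Slfn1, known from growth arrest of mouse thymocytes, was above background on 0 of 8 arrays, with levels of -6.53 to -5.29. Slfn5, a nuclear long member, was above background on LPS replicate 2 only, at -3.27, and between -6.58 and -5.30 on the other 7 arrays. LPS replicate 1 read -5.62, so the LPS arrays did not give the same answer.

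**Figure D3:**
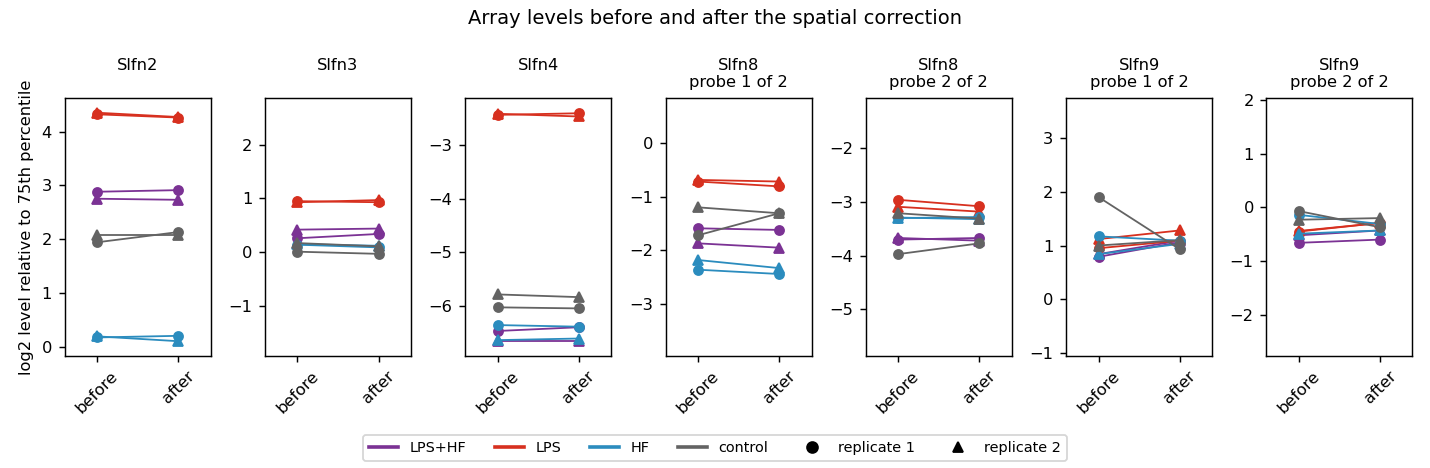
Level of the 7 probes that passed the filter on each array (vertical axis, log2 relative to the 75th percentile, 1 span of 4.8 in every panel) before and after the correction for local deviations across the array. Colours are groups, circles replicate 1 and triangles replicate 2. Control replicate 1 moves for Slfn9 (1.90 before, 0.93 after) and for Slfn8 (-1.72 before, -1.31 after), and Slfn2 keeps its order of groups.

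Set beside all genes, the counts of called members were as follows, with the reminder that these contrasts chose the members and that nothing is read from the counts. In LPS against control cells 3 of 5 tested members were higher (Slfn2, Slfn3, Slfn4) and 0 lower, while 4.81% of all genes were called higher and 6.35% lower. In HF against control cells 0 were higher and 1, Slfn2, lower, against 0.143% and 0.74% of genes. In LPS+HF against LPS cells 0 were higher and 3 lower (Slfn2, Slfn4, Slfn8), against 2.99% and 3.26%. In LPS+HF against HF cells 1, Slfn2, was higher and 0 lower, against 0.904% and 0.374%. For the interaction 0 were higher and 1, Slfn4, lower, against 0.0134% and 0.0401%. The calls are limma's, at a Benjamini-Hochberg adjusted p under 0.05 over all genes. The median log2 difference of the 4 members above background in every group, which leaves out Slfn4, was 0.80 for LPS against control, -0.62 for HF against control, -0.81 for LPS+HF against LPS and 0.36 for LPS+HF against HF. The medians of all genes in these comparisons were -0.08, -0.07, -0.07 and -0.08. LPS against control and HF against control share the control arrays, and LPS against control and LPS+HF against LPS share the LPS arrays. For all genes the split of calls in LPS against control was 1080 higher and 1425 lower, and under median scaling 572 higher and 262 lower.

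The members lie in 1 run along chromosome 11, in the order Slfn5, Slfn9, Slfn8, Slfn2, Slfn1, Slfn4 and Slfn3. Slfn2 and Slfn4, which had the largest steps with LPS, flank Slfn1, which was not above background on any array. Of 9 protein-coding genes close to the cluster on either side, 4 were tested. Rffl, an endosomal ubiquitin ligase, was 0.89 ± 0.17 higher in LPS than in control cells (adjusted p = 0.026, limma) and 1.12 lower in LPS+HF than in LPS cells (-1.12 ± 0.17, adjusted p = 0.023, limma). Rad51d, Nle1 and Ap2b1 passed in none of the comparisons, with log2 differences for LPS against control of -0.41, -0.59 and 0.37. Slfn14, Unc45b, Fndc8, Rasl10b and Gas2l2 did not pass the filter on dim probes. Among further relatives, the pseudogene Slfn10-ps had levels of 0.42 and 0.27 in LPS+HF, 0.94 and 1.19 in LPS, 0.25 and 0.67 in HF, and -0.74 and 0.49 in control cells, with no call. Its lowest value came from control replicate 1 and was not well above background there. The processed signal of that spot was 148 against a median brightness of 61. Slfnl1, a Schlafen-like gene outside the cluster, was above background on LPS+HF replicate 2 only, at -3.83, and the antisense transcript Slfn5os on no array. The sequences of the probes were not used here, so signal shared between near-identical members or with Slfn10-ps was not tested.

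**Figure D4:**
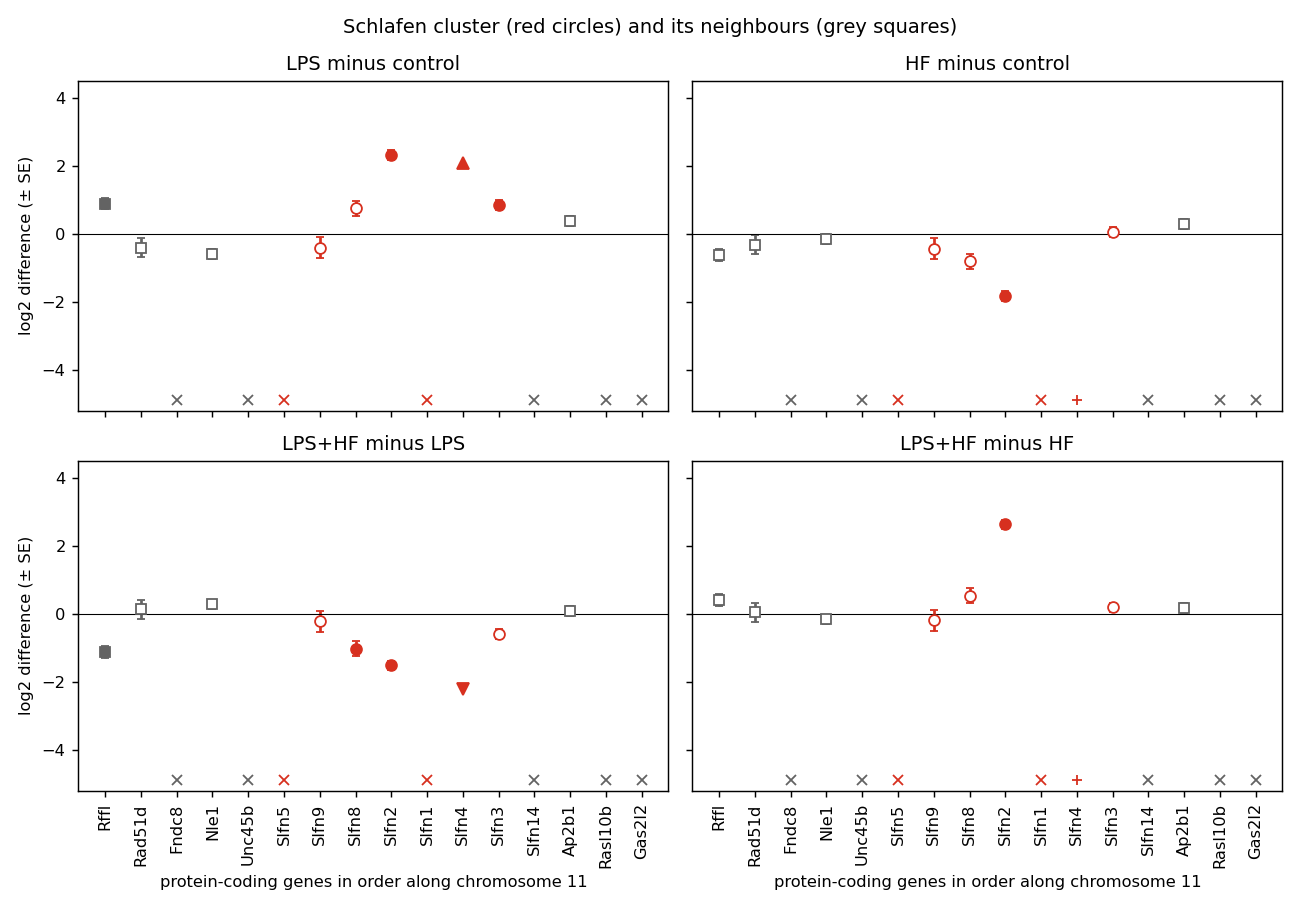
Log2 differences (vertical axis, bars are SE) of the Schlafen genes (red circles) and 9 protein-coding genes close to them on either side (grey squares), in their order along chromosome 11, for 4 comparisons. Filled symbols passed the threshold, crosses mark genes that did not pass the filter on dim probes, triangles mark the bounds for Slfn4, and plus signs mark where both groups of Slfn4 were below background. Slfn2 is filled in all 4 panels, and Rffl is the only filled gene among the 9.

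Schlafen genes are counted among interferon-stimulated genes, so the genes that carry and answer the interferon signal were read on the same arrays. Of 13 genes of interferon input and signalling 12 were tested, and 3 were higher in LPS than in control cells. These were Irf7, a transcription factor that amplifies the interferon response (3.15 ± 0.37, adjusted p = 0.0073, limma), Usp18, a protease that removes ISG15 and dampens interferon receptor signalling (1.24 ± 0.19, adjusted p = 0.016, limma), and the receptor kinase Jak1 (0.82 ± 0.16, adjusted p = 0.028, limma). The other 9 lay between -0.93 ± 1.08 for the kinase Tyk2 and 1.96 ± 0.82 for the receptor chain Ifnar2. At both ends the control arrays disagreed. Control replicates 1 and 2 read 5.25 and 1.54 for Tyk2, and 1.23 and 3.73 for Ifnar2. The LPS arrays read 2.47 and 2.45 for Tyk2, and 4.49 and 4.39 for Ifnar2, so neither end is a measured difference. In LPS+HF against LPS cells Irf7 fell by 2.85 (adjusted p = 0.017, limma) and Usp18 by 2.22 (adjusted p = 0.0093, limma), 2 of the 12. Usp18 was the 1 gene of the list called in HF against control cells, with a log2 difference of -1.76 ± 0.19 (adjusted p = 0.025, limma). In LPS+HF against HF cells limma's adjusted p called 0 of the 12 and its unadjusted p under 0.05 marked 4, with Irf7 at 1.84 ± 0.37. Without the arrays marked by the quality report, 6 were higher in LPS than in control cells, and 1 was higher and 5 lower in LPS+HF than in LPS cells. With no scaling these counts were 2 higher, and 1 higher and 2 lower, and 0 were called in HF against control. Of all genes, the scaled fit called 4.81% higher in LPS against control and 0.74% lower in HF against control. It called 3.26% lower in LPS+HF against LPS and 0.904% higher in LPS+HF against HF. With no scaling, 6418 of 22446 genes were higher and 204 lower in LPS+HF than in LPS cells. The median log2 difference of the list was 1.03 in LPS against control and -0.25 in LPS+HF against LPS. The 1.03 depends on control replicate 1, which read below control replicate 2 for more than Ifnar2. The 2 arrays read 1.98 and 4.70 for Irf8, 0.58 and 2.69 for Irf9, -0.08 and 1.67 for Ifnar1, and 0.79 and 1.95 for Irf7. Control replicate 1 was the higher one, by smaller steps, for Stat2, Irf1, Usp18 and Socs1. The probe of Ifnb1, which encodes interferon beta, was above background on LPS replicate 1 only, at a log2 level of -4.00.

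Of 26 antiviral effectors 23 were tested. In LPS against control cells 20 were higher and 0 lower, with a median log2 difference of 2.67. Among the 20, control replicates 1 and 2 disagreed for Oasl2 (-2.06, not above background, and 1.73), Oasl1 (3.03 and 5.51) and Ifit1 (-1.96 and -3.86). For each of these the LPS arrays were above both control arrays. In HF against control cells 7 were lower and 0 higher, with a median of -1.38. Of these 7, Trim30a was below background on every control and HF array, so its call is no measured difference. Ifit3, also among the 7, was below background on both HF arrays and on control replicate 1. In LPS+HF against LPS cells 16 were lower and 0 higher, with a median of -2.16. In LPS+HF against HF cells 10 were higher and 0 lower, with a median of 1.69, or 1.64 with 3 genes set at their bound. Without the marked arrays these counts were 21, 6, 20 and 13, and with no scaling 20, 4, 12 and 11. Of all genes, the scaled fit called 4.81% higher in LPS against control and 0.74% lower in HF against control. It called 3.26% lower in LPS+HF against LPS and 0.904% higher in LPS+HF against HF. With no scaling, 6418 of 22446 genes were higher and 204 lower in LPS+HF than in LPS cells. The difference in LPS+HF against LPS cells was -3.67 ± 0.28 for Ifit3, which binds viral RNA, and -3.53 ± 0.29 for the ubiquitin-like Isg15. In HF against control cells, where Slfn2 stood at -1.83, the receptor chaperone Rtp4 stood at -4.36 ± 0.24 and Isg15 at -2.78 ± 0.29.

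Likeness was measured as Pearson's r over the 8 arrays with each of 3932 tested genes whose SD was at least 0.5, as a description. The arrays share 1 slide and fall into the 4 groups. The genes closest to Slfn2 were the mitochondrial nucleotide kinase Cmpk2 (r = 0.997), the Bcl-2 relative Bcl2a1d (0.997) and the ubiquitin ligase Trim30a (0.995, above background on 4 arrays only). Those closest to Slfn8 were the RNA sensor regulator Dhx58 (0.990), the oligoadenylate synthetase Oas1a (0.990) and Tceal3 (0.989, above background on 5 arrays only). For Slfn3 they were the repressor Etv6 (0.996), Mkx (0.982) and Nfe2l1 (0.981), and for Slfn4, above background in LPS cells alone, Pard6g (0.992), Gng8 (0.992) and Nav2 (0.988). For Slfn9, whose spread is mostly that of control replicate 1, they were Map7d2 (0.992), Astn2 (0.990) and Cd209d (0.989). Among the members, r was 0.90 between Slfn2 and Slfn8, 0.91 between Slfn3 and Slfn4, 0.77 between Slfn2 and Slfn4, and -0.30 to 0.01 between Slfn9 and the other 4.

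Of 7 genes of transfer RNA cleavage, the process in which Slfn2 acts, 1 was called, and nothing is read from that count. Over all genes 4.81% were called higher and 6.35% lower in LPS against control. In LPS+HF against LPS these shares were 2.99% and 3.26%. Elac2, which trims the ends of transfer RNA precursors, was 0.89 lower in LPS than in control cells (-0.89 ± 0.17, adjusted p = 0.030, limma) and 1.09 ± 0.17 higher in LPS+HF than in LPS cells (adjusted p = 0.027, limma). The list had medians of -0.21 and 0.27 in these comparisons. With no scaling, 6418 of 22446 genes were called higher and 204 lower in LPS+HF than in LPS cells, at a median of 0.71. Of the 7 under that setting, 0 were called in LPS against control and 4 were higher in LPS+HF than in LPS cells. Without the marked arrays, 2 were lower in LPS than in control cells, and 2 were higher and 1 lower in LPS+HF than in LPS cells. Of 12 genes of quiescence and growth control, 1 was higher and 4 lower in LPS than in control cells, with a median of 0.03. The growth factor response gene Myc was at least 3.87-fold higher by the rule used for Slfn4, since control cells were below background. The cell cycle inhibitor Cdkn1c fell by 1.68, the antiproliferative gene Tob1 by 1.03, the inhibitor Cdkn1a by 0.85 and the quiescence factor Klf2 by 0.85. Only Myc of the 12 was called in LPS+HF against HF cells, at least 8.38-fold higher by the same rule. Over all genes 0.904% were called higher in that comparison. In HF against control and in LPS+HF against LPS, limma called 0 of the 12 at an adjusted p under 0.05, and 2 in each had an unadjusted p under 0.05. With no scaling, where 6418 of all genes were called higher in LPS+HF than in LPS cells, 5 of the 12 were. In LPS against control 1 of the 12 was then higher and 1 lower. Without the marked arrays, 2 were higher and 5 lower in LPS than in control cells, and 2 higher in LPS+HF than in LPS cells.

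The label of the cells was checked against marker lists. Of 14 microglia and macrophage markers, 11 were above background on all 8 arrays and Sall1, a microglial identity factor, on none. Their summed level, in units of the array's 75th percentile, was 628 to 713 in LPS+HF, 778 to 797 in LPS, 614 to 665 in HF and 820 to 917 in control cells. Such a sum is of levels not in log2, so the brightest probes weigh most, such as Cd68 at log2 7.95 and 7.74 in control cells. Slfn2 was lower in HF than in control cells and in LPS+HF than in LPS cells, as was this sum, and its part in the result was not tested. Of the 13 microglia markers tested, limma called 2 higher and 3 lower in LPS than in control cells, 0 higher and 2 lower in HF than in control cells, and 1 higher and 2 lower in LPS+HF than in LPS cells. With no scaling these counts were 1 and 1, 0 and 0, and 3 and 0. Over all genes the scaled fit called 4.81% higher and 6.35% lower, 0.143% and 0.74%, and 2.99% and 3.26% in the same comparisons. With no scaling, 6418 of 22446 genes were called higher and 204 lower in LPS+HF than in LPS cells. The summed oligodendrocyte markers were 20.7 to 20.9 in LPS+HF, 36.1 to 39.8 in LPS, 31.8 to 58.6 in HF and 47.5 to 64.9 in control cells, and the neuron markers 6.50 to 7.65, 9.50 to 10.2, 7.28 to 7.72 and 9.0 to 11.4 in the same order. These sums too were lower in LPS+HF than in LPS cells, and their part in the result was not tested. The astrocyte sum was 0.285 to 0.326 in LPS+HF, 0.288 to 0.341 in LPS, 0.305 to 0.398 in HF and 0.370 to 0.686 in control cells, and the T lymphocyte sum 8.86 to 10.1, 10.3 to 10.5, 9.13 to 9.77 and 7.78 to 8.84. Of 4 T lymphocyte markers tested, Cd2, an adhesion receptor, differed by -4.05 and the kinase Lck by 0.83 in LPS against control, with adjusted p-values of 0.00037 and 0.027 (limma). Cd2 also passed in LPS+HF against LPS (0.72) and LPS+HF against HF (-2.4). The neuron marker Rbfox3 was above background on both HF arrays, on LPS+HF replicate 2, and on no LPS or control array. On no array above background were Slc1a3, Slc1a2 and Gjb6 of 6 astrocyte markers, Syt1, Map2 and Stmn2 of 6 neuron markers, Olig1 and Olig2 of 6 oligodendrocyte markers, and Cd3g of the 5 T lymphocyte markers on the array.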

How the data were processed

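RNA of 8 BV-2 samples was hybridised to single-colour Agilent arrays. Per the file headers, Agilent Feature Extraction (version 11.5.1.1) produced the intensity values, background-subtracted and trend-corrected, with no scaling between arrays. The deposited log2 matrix of the authors served as an alternative, and its differences between arrays, compared with the scanner values, had the same 75th percentile scaling, centred per probe.

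Processed signals were converted to log2, shifted to the 75th percentile and averaged over those of a probe's spots that were not marked as faulty. Symbols came from the probe's transcript through RefSeq tables (28026 probes, 50.3%). Probes that read well above background on both arrays in 1 group or more were kept (30314), and the probe with the highest mean stood for its gene. Group means were fitted over all 8 arrays with limma 3.58.1 in R 4.3.3 (4 residual and 2.04 prior degrees of freedom), two-sided, with Benjamini-Hochberg adjustment at 0.05, after tests on simulated data. The number of arrays limits the precision.

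The members and lists were chosen with earlier results of these data known. The genes named are all members, genes of the interferon input list, up to 4 called genes of other lists, up to 5 neighbours on either side and the 3 most alike genes. A neighbour and a gene of the interferon input list were left out of the lists and are not reported here. Numbers shared by replicates did not pair the arrays. Alternatives were the normexp correction (offset 50, on median brightness, since mean brightness was not in the files) with quantile normalization, quantile normalization, median scaling, the authors' matrix, no filter, a filter on all arrays, a mean over probes, a replicate block, only the arrays compared, a spatial correction (windows of 31 rows and 15 columns), a trended robust variance, and leaving out each array. Leaving out both arrays marked by the quality report, and no scaling, were added after seeing the data. Python 3.11.15 with matplotlib 3.10.9 drew the figures.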

Additional observations from a re-analysis of the deposited data

Results flagged for a closer look

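The interaction term of the fit passed for Slfn4. LPS+HF minus HF, less LPS minus control, was -3.53 in log2, and the call was kept in 7 of 19 alternative fits. The levels were -6.46 and -6.64 in LPS+HF cells, -2.44 and -2.42 in LPS cells, -6.35 and -6.63 in HF cells, and -6.02 and -5.78 in control cells. Only the LPS arrays were above background, and the probe passed the filter only through them, so the term does not measure a difference between the responses. The levels of Slfn4 were known when the family was chosen, and the value is a description.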

How the results depend on the processing

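Counts are of the 5 tested members called by limma at an adjusted p under 0.05. With an array left out, the highest counts for LPS against control and HF against control came without control replicate 2. Control replicate 1, whose grid was marked as not good, then stood alone for its group, with Slfn9 at -0.87 and -0.89. For LPS against control 3 were called, 1 with only the arrays compared and 2 to 5 with an array left out. For HF against control 1 was called, 2 with the spatial correction, and 0 to 3 with an array left out. It was 0 with the normexp correction, median scaling, no filter, only the arrays compared or no scaling, where 1 to 3 members had an unadjusted p under 0.05. For LPS+HF against LPS 3 were called, 1 with median scaling or no scaling, and 0 to 4 with an array left out. The 0 came from leaving out LPS replicate 1 or LPS replicate 2, where 4 members had an unadjusted p under 0.05. For LPS+HF against HF 1 was called, and 1 to 1 in all fits run. For the interaction 1 was called, and 0 to 2 with an array left out. It was 0 with normexp, quantile normalization, median scaling, no filter, the filter on all arrays (which drops Slfn4) or a trended robust variance, with 1 or 2 members at an unadjusted p under 0.05. With the replicate block it was also 0, and Slfn8 lost its call in LPS+HF against LPS. The other members called kept their calls under the block, and over all genes it gave 1704, 44, 592, 199 and 0 calls in the 5 comparisons, against 2505, 198, 1404, 287 and 12 without it. Deviations of arrays with the same number correlated at -0.09 to 0.27 between groups.

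Signs that turned belong to differences that had not passed. With normexp, LPS minus control was -0.05 for Slfn8 and 0.34 for Slfn9, HF minus control -0.40 for Slfn3 and 0.23 for Slfn9, and the interaction 0.32 for Slfn8 and -0.47 for Slfn9. With median scaling the interaction was -0.01 for Slfn9. With the spatial correction Slfn9 stood at 0.17 for LPS minus control, 0.04 for HF minus control, 0.02 for LPS+HF minus HF and -0.15 for the interaction, where Slfn8 had 0.06. With no scaling, HF minus control was 0.23 for Slfn9, LPS+HF minus LPS 0.18 for Slfn3 and 0.56 for Slfn9, and LPS+HF minus HF 0.08 for Slfn9. Without the marked arrays, LPS minus control was 0.04 for Slfn9, HF minus control -0.02 for Slfn3 and the interaction -0.07 for Slfn9. With an array left out, the ranges that cross 0 were -0.87 to 0.04 for Slfn9 in LPS minus control, -0.02 to 0.13 for Slfn3 and -0.89 to 0.01 for Slfn9 in HF minus control, and -0.48 to 0.04 for Slfn8 and -0.23 to 0.67 for Slfn9 in the interaction. The causes were not tested. A lone array was given the spread of the other groups. The largest of the following counts for LPS minus control, HF minus control and the interaction came from such a fit. It left out control replicate 2 and kept control replicate 1 as the only control array. Over all settings, calls among all genes ran from 67 to 11821 in LPS minus control, 0 to 10165 in HF minus control, 0 to 7395 in LPS+HF minus LPS, 56 to 887 in LPS+HF minus HF and 0 to 7929 in the interaction.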
